A study of Homo sapiens with 8 samples.

Results

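Tumor cells carry surface proteins that dampen immune attack, and 8 of the genes that encode them were followed here by name across the treatments of the established human line A549, derived from a lung adenocarcinoma. They are CD274 (PD-L1), CD276 (B7-H3), VTCN1 (B7-H4), TNFRSF14 (HVEM), LGALS9 (galectin-9), PVR (CD155), NECTIN2 (CD112) and CD47. All 8 are among the 60664 genes of the deposited count table. PVR had 0 counts in all 8 libraries and was therefore not measured, VTCN1 was counted but fell below the expression filter, and the other 6 were tested. CD274 and TNFRSF14 reached the filter through the IFN-γ-treated groups, in which they were high. LGALS9, with 14 and 7 counts in untreated cells, reached it through the treated groups. Differences of these 3 genes from groups in which they were low, with their p-values and ranks, were in part set by the filter.

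The 8 libraries fall into 4 groups of 2. Untreated A549 cells received neither agent, a second group received AX-0085, a kinase inhibitor, at 0.5 μM, another received IFN-γ alone, and the last received IFN-γ and then AX-0085 at 0.5 μM. IFN-γ was added 24 h before AX-0085 and RNA was taken 24 h after AX-0085. The labels give 20 ng of IFN-γ with no volume, and the study's methods give that amount per mL. All libraries come from 1 cell line in culture without immune cells, and the labels do not say whether the 2 libraries of a group came from separate cultures, so that p-values measure only the spread between them, which may be technical. Fewer expressing cells and less RNA per cell cannot be told apart in such bulk RNA.

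Checkpoint ligands bind inhibitory receptors on T cells, natural killer cells or macrophages. PD-L1 engages PD-1 on T cells, and its gene is a textbook target of the IFN-γ pathway, in which JAK kinases signal to the nucleus and IRF1 is induced. The B7 family also includes CD276 and VTCN1. HVEM binds BTLA and CD160, galectin-9 binds TIM-3, PVR and NECTIN2 bind TIGIT and the activating receptor DNAM-1, and CD47 restrains phagocytosis through SIRPα on macrophages.

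Total counts lay between 20672828 and 29978251 per library, at which 3 counts correspond to between 0.0959 and 0.158 CPM, the unit of counts scaled to library depth with TMM factors. These limits cover counting error only. Duplicates were separate libraries, since their counts differed beyond sampling noise in every group (chi-square divided by its degrees of freedom, 8.55 to 27.7). Summed over 6 epithelial markers, the level was between 5759 and 9550 CPM. Summed over 16 markers of other cell types it was between 5.39 and 20.0 CPM, with 5 of the 16 at 0 counts everywhere and at most 1 count of PTPRC, the marker of all blood cells, in any library. The sum over the other markers was lowest in the IFN-γ libraries, at 6.34 and 5.39 CPM against 17.4 and 20.0 in untreated cells. In the IFN-γ libraries mitochondrial genes took 1.71% and 1.82% of the counts, against between 2.72% and 5.73% in the other 6. The part of either in the results was not tested.

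Upstream of CD274 the reference sequence holds the kinds of element through which IFN-γ acts, and the stretch is shown because the study used the promoter of this gene as its reporter. It is the plus strand of chr9:5450292-5450502 (RefSeq, GRCh38.p14) and ends at the base before the first annotated exon in GENCODE 44. Capitals mark matches on the minus strand to an IRF-binding element, searched as 2 GAAA blocks with 2 free bases between them, and to TTCNNNGAA, the palindromic GAS element of IFN-γ-responsive promoters.
CD274 upstream: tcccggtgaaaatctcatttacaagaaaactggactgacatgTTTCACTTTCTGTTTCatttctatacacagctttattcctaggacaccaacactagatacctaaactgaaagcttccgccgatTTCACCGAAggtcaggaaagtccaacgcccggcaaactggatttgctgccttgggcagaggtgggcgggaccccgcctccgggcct
The capitals at the left are 2 overlapping IRF matches that begin at -208 and -202 from the RefSeq start, and the GAS match begins at -125. All 8 genes had promoter windows in the RefSeq table, running from 250 bases before to 50 after a start, and both strands were searched. A GAS match lay in 7.66% of the 35116 windows of all genes and an IRF match in 3.57%. Among the ligand genes CD274 had the GAS match, LGALS9 had 1 IRF match at -9 on the minus strand, and no window of the other 6 genes held either. A match is a description of letters and not of binding.

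Whether neighboring genes limited how much of each gene the table could count was not tested, and the overlaps are given here as values. CD274 (ENSG00000120217) occupies bases 5450503 to 5470566 of chromosome 9 (GRCh38, plus strand). Its 3′ part is covered by ENSG00000286162, a minus-strand noncoding gene at 5457477 to 5629748. Although no exon base of CD274 lies in an exon of that gene, 87.8% lie inside its span. Of the 7 exons of the main CD274 transcript, 3 lie outside it, with 463 of 3634 bases. PVR (ENSG00000073008, chromosome 19, 44643798 to 44666162, plus strand) lies wholly inside the spans of other genes, the longest being CEACAM16-AS1 on the minus strand, although 20.6% of its exon bases lie in exons of other genes.

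Among all protein-coding genes, the share with 0 counts in every library was highest where most or all exon bases lay inside other genes, as the plot of genes at 0 shows. Of 8779 genes with no exon base inside another gene, 14.9% were at 0. The share was 3.55% with over 0% to 50% inside, 6.88% with 50% to under 80%, and 36.4% with 90% to under 100%. Of 2436 genes with all exon bases inside others, 81.7% were at 0, and of the 766 of these that share no exon base with another gene 728 were at 0. The 362 genes with 80% to under 90% inside, the range of CD274, were at 0 in 13.3% of cases, and of the 38 of these that, like CD274, share no exon base with another gene 18.4% were at 0. The zeros of PVR were therefore not read as absence of its RNA, and whether the counts of CD274 leave out reads from its 3′ exons was not tested. For the other members the share inside other genes was 41.2% for LGALS9, 37.9% for NECTIN2, 13.9% for TNFRSF14, and 0% for CD276, CD47 and VTCN1.

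**Figure D1:**
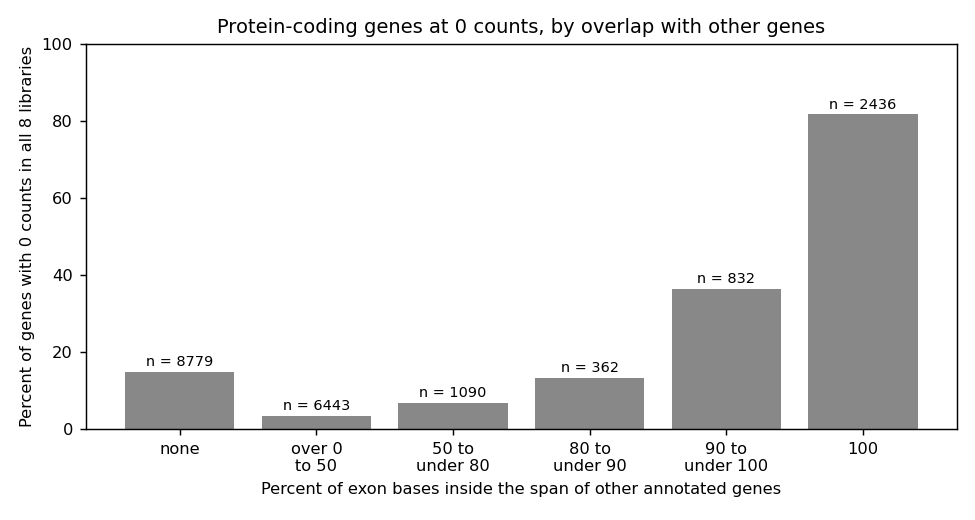
Percent of protein-coding genes with 0 counts in all 8 libraries (y axis) by the percent of their exon bases inside the span of other annotated genes in GENCODE 44 (x axis), with the number of genes above each bar. The share is 14.9% with no overlap and 81.7% where all exon bases overlap, the class of PVR.

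Each comparison below was tested in 1 model of the 4 groups with edgeR's quasi-likelihood test over 15066 genes, with Benjamini-Hochberg adjustment over all of them. Genes with more than a 2-fold change and an adjusted p under 0.05 are named as called. Comparisons that share a group share its libraries and are not independent of each other.

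IFN-γ treatment up-regulated 3 of the 6 tested ligand genes, CD274, TNFRSF14 and LGALS9, and down-regulated CD276, while NECTIN2 and CD47 moved by less than 2-fold. Of all 15066 genes 27.5% were called in the same comparison, 10.3% higher and 17.2% lower. The median log2 fold change was 0.66 over the 6 ligand genes and -0.06 over all genes tested. The rises of CD274, TNFRSF14 and LGALS9, with their p-values and ranks, were in part set by the filter, as given above.

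CD274 was counted 104 and 161 times in the 2 IFN-γ libraries. In untreated cells its counts were 3 and 5, under AX-0085 alone 3 and 10, and under both agents 14 and 10. Both IFN-γ libraries stood far above the other 6, and the untreated and AX-0085 groups overlapped. IFN-γ raised it by 5.31 on the log2 scale (standard error 0.35, adjusted p = 1.817e-08), the 79th largest change in size among all tested genes, with a 95% interval from 4.56 to 6.07. The overlapping noncoding gene ENSG00000286162 was counted 92 and 161 times in the IFN-γ libraries, 68 and 44 times under both agents, 26 and 13 times in untreated cells and 16 and 30 times under AX-0085 alone. It was therefore also highest in the 2 IFN-γ libraries, and whether reads of CD274 are among its counts was not tested.

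TNFRSF14 (ENSG00000157873, chromosome 1, 2555639 to 2565382, plus strand) encodes HVEM, a receptor of the TNF family that acts as a ligand of BTLA. Its counts were highest under both agents, at 106 and 90. They were 11 and 32 under IFN-γ, 1 and 2 under AX-0085 alone and 1 and 3 in untreated cells. No untreated or AX-0085 library reached any library of the IFN-γ group, and no IFN-γ library reached those with both agents. The IFN-γ libraries held 43 counts against 4 in untreated cells, a ratio of 13.4 after scaling, with a 95% counting interval from 4.89 to 51.6. The log2 fold change was 3.65 (standard error 0.62, adjusted p = 0.0001605). With so few untreated counts the fitted size moved when a library was left out. It was 2.99 without untreated replicate 1, 4.69 without untreated replicate 2 and 2.95 without IFN-γ replicate 2, and the gene was called each time.

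LGALS9 (ENSG00000168961, chromosome 17, 27629798 to 27649560, plus strand) encodes galectin-9, a secreted carbohydrate-binding protein. The gene has near-identical copies, and whether reads were shared with them was not tested. Counts lay between 7 and 55 per library. Scaled, they were 1.76 and 1.66 CPM under both agents, 1.16 and 1.32 under AX-0085 alone, 0.792 and 0.804 under IFN-γ, and 0.463 and 0.285 in untreated cells, so that no 2 groups overlapped. IFN-γ raised LGALS9 by 1.05 (standard error 0.36, adjusted p = 0.01998), just past the fold threshold. The call was lost without untreated replicate 2 (0.78, adjusted p = 0.1212), without IFN-γ replicate 2 (1.09, adjusted p = 0.06746), in DESeq2 (1.13, adjusted p = 0.09373) and with scaling by library size alone (0.94, adjusted p = 0.03934).

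CD276 (ENSG00000103855, chromosome 15, 73683966 to 73714514, plus strand), a B7 family ligand whose receptor is not settled, was the ligand gene called lower. Its level was 35.6 and 33.6 CPM under IFN-γ, 55.6 and 57.7 under both agents, 59.9 and 64.6 under AX-0085 alone, and 71.0 and 78.9 in untreated cells. The 4 groups did not overlap, and the IFN-γ libraries were the lowest. IFN-γ lowered it (log2 fold change -1.11, standard error 0.08, adjusted p = 3.58e-08).

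NECTIN2 (ENSG00000130202, chromosome 19, 44846175 to 44889223, plus strand), an adhesion molecule bound by TIGIT and PVRIG, was lowest under AX-0085 alone, at 49.9 and 51.1 CPM, against 60.1 and 64.8 under both agents, 72.5 and 72.6 under IFN-γ, and 78.2 and 88.0 in untreated cells. With IFN-γ it was lower by less than 2-fold, with a log2 fold change of -0.20 (95% interval -0.35 to -0.04, adjusted p = 0.02871). CD47 (ENSG00000196776, chromosome 3, 108043091 to 108091862, minus strand) was highest under IFN-γ, at 55.8 and 62.2 CPM, against 50.7 and 47.8 in untreated cells, 43.6 and 47.0 under AX-0085 alone, and 39.7 and 39.0 under both agents. Its IFN-γ change was 0.26 (95% interval 0.09 to 0.43, adjusted p = 0.009281), which was also not called.

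VTCN1 (ENSG00000134258, chromosome 1, 117143587 to 117210960, minus strand) had 2 counts in untreated replicate 2, 1 count in AX-0085 replicate 1 and 0 in the other 6 libraries. Its level was thus at or under the smallest that the depth can show in every group, and no change is given for it.

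**Figure D2:**
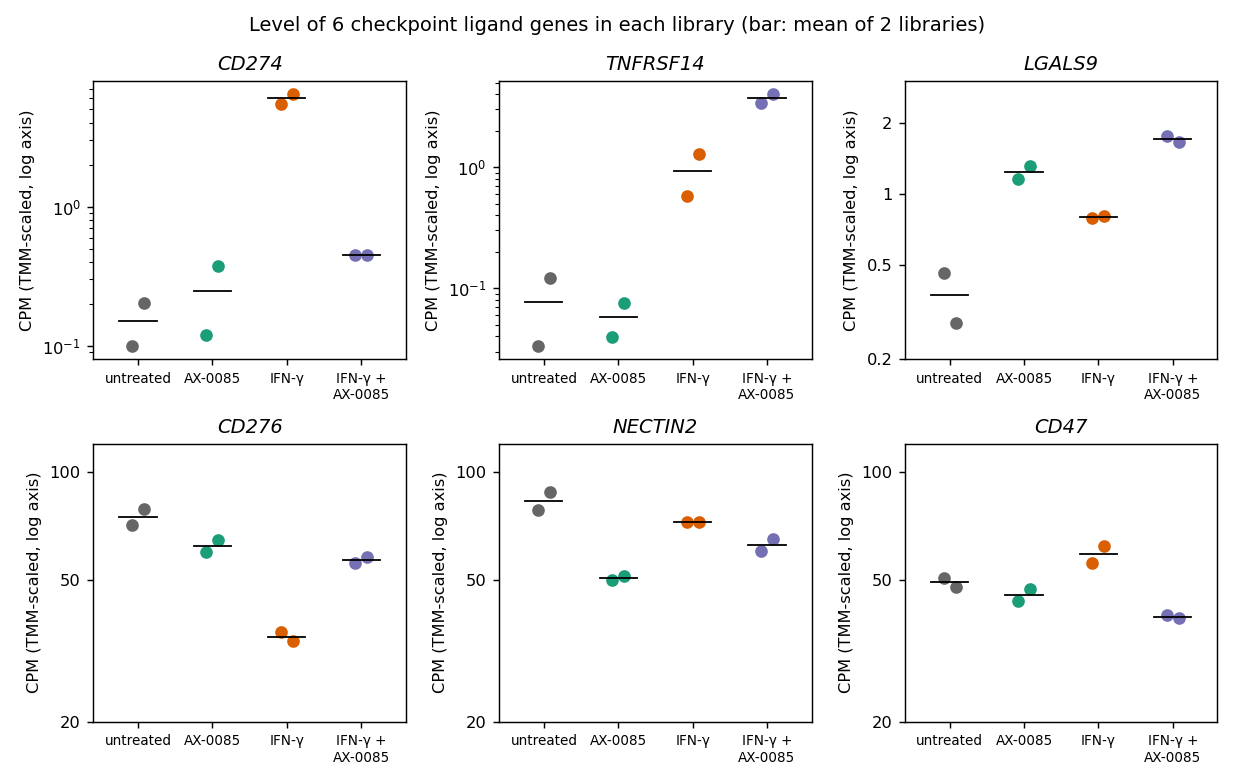
Level of the 6 tested ligand genes in each library, in TMM-scaled CPM on log axes whose ranges differ between panels, with 2 points per group and a bar at their mean. CD274 is highest with IFN-γ alone and TNFRSF14 with IFN-γ and AX-0085, while CD276 is lowest with IFN-γ alone.

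The next comparison asked what AX-0085 did to the ligands in cells already exposed to IFN-γ. CD274 was down-regulated, TNFRSF14 and LGALS9 were up-regulated further, and none of the other 3 passed the fold threshold. In all, 2 of 6 ligand genes were called higher and 1 lower. Of all tested genes 24.8% were called, 16.5% higher and 8.28% lower. The median log2 fold change was 0.25 over the 6 genes and 0.03 over all genes.

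CD274 fell by 3.73 on the log2 scale upon addition of AX-0085 (standard error 0.28, adjusted p = 9.664e-08). Its mean level went from 5.98 ± 0.692 CPM (SD, n = 2) with IFN-γ to 0.449 ± 0.00134 CPM (SD, n = 2) with both agents, which removed 94.9% of the rise over untreated cells on the linear scale. TNFRSF14 moved the other way, from 0.933 ± 0.499 CPM (SD, n = 2) to 3.72 ± 0.465 CPM (SD, n = 2), a log2 fold change of 1.92 (standard error 0.29, adjusted p = 7.412e-05). This change was 2.65 without IFN-γ replicate 2, and the gene was called without each library in turn. LGALS9 rose by 1.10 (standard error 0.27, adjusted p = 0.003159), and this call was lost in DESeq2 (1.06, adjusted p = 0.07216).

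CD276 was 0.71 higher on the log2 scale with both agents than with IFN-γ alone (standard error 0.08, adjusted p = 3.566e-06). On the linear scale this made up 54.7% of the IFN-γ fall. CD47 was lower (log2 fold change -0.59, standard error 0.08, adjusted p = 2.411e-05), and in both libraries with both agents it lay below every other library. NECTIN2 changed by -0.22 (standard error 0.07, adjusted p = 0.01826). All 3 values lie under the 2-fold threshold.

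Without IFN-γ, AX-0085 up-regulated LGALS9 by 1.68 on the log2 scale (standard error 0.32, adjusted p = 0.0006686), and this was the 1 call among the 6 ligand genes. Of all tested genes 12% were called, 6.41% higher and 5.62% lower. The median was -0.19 over the ligand genes and 0.01 over all genes. NECTIN2 was lower with AX-0085 (log2 fold change -0.72, standard error 0.07, adjusted p = 3.21e-06), which is under 2-fold, and CD276 by -0.27 (standard error 0.07, adjusted p = 0.008835). A change was not detectable for CD274 (0.76, 95% interval -0.65 to 2.17, adjusted p = 0.3471), for TNFRSF14 (-0.31, 95% interval -2.77 to 2.15, adjusted p = 0.8388) or for CD47 (-0.12, 95% interval -0.29 to 0.05, adjusted p = 0.2199). The first 2 intervals include changes of more than 2-fold in at least 1 direction, since these genes had at most 10 counts in any library of these groups.

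Cells with both agents were compared with each of the 2 groups that lacked IFN-γ. Against untreated cells TNFRSF14, LGALS9 and CD274 were called higher and no ligand gene was called lower, while 14.7% of all genes were called, 7.51% higher and 7.23% lower. TNFRSF14 had 196 counts against 4, a ratio of 50.2 after scaling with a 95% counting interval from 19.3 to 186. Its log2 fold change was 5.57 (standard error 0.46, adjusted p = 3.854e-07), the 12th largest in size of all tested genes. It was 4.90 without untreated replicate 1 and 6.60 without untreated replicate 2. LGALS9 rose by 2.15 (standard error 0.30, adjusted p = 4.641e-05). CD274 remained higher by 1.58 (standard error 0.57, adjusted p = 0.02944), and this call was lost without untreated replicate 1 (1.16, adjusted p = 0.1799) and without either library of cells with both agents (1.63 and 1.59, adjusted p = 0.09215 and 0.0701). CD276, NECTIN2 and CD47 had log2 fold changes of -0.40, -0.41 and -0.32.

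Against AX-0085 alone, the effect of IFN-γ in cells that also received the inhibitor was called for 1 ligand gene. Of all tested genes 3.52% were called, 1.79% higher and 1.73% lower. TNFRSF14 had 196 counts against 3 and rose by 5.88 (standard error 0.49, adjusted p = 2.796e-06), the 6th largest change in size of all tested genes. CD274 changed by 0.82 (95% interval -0.28 to 1.93, adjusted p = 0.2346) and LGALS9 by 0.47 (95% interval -0.05 to 0.99, adjusted p = 0.1541). NECTIN2 was higher by 0.30 (adjusted p = 0.006427), which is under 2-fold, and CD276 and CD47 had changes of -0.14 and -0.20 (adjusted p = 0.182 and 0.06502).

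**Figure D3:**
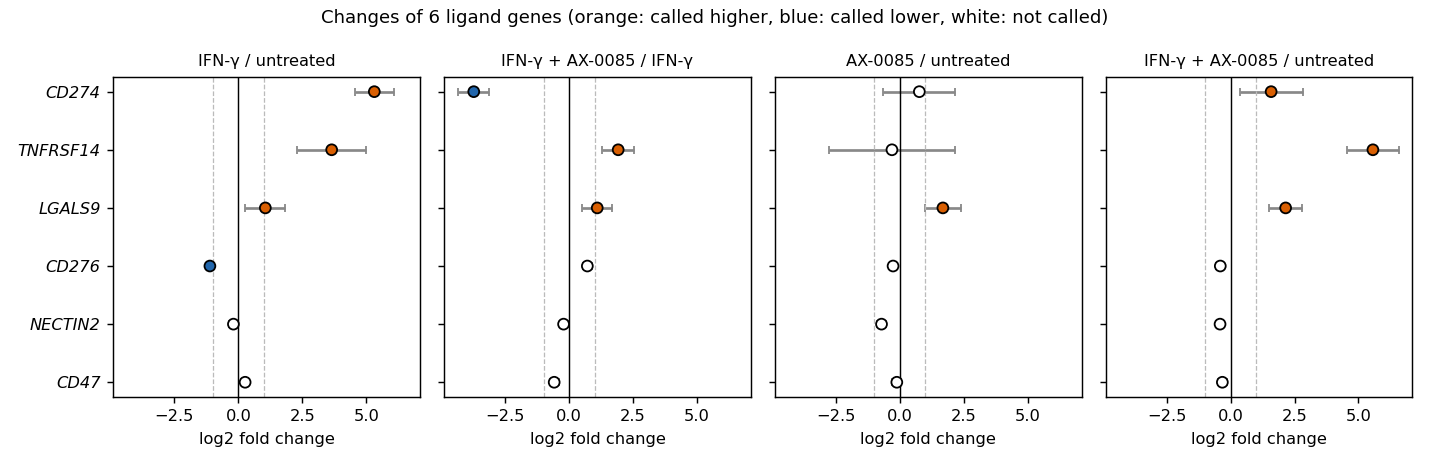
Log2 fold changes (x axis, points) with 95% intervals (bars, hidden by the point where short) of the 6 tested ligand genes in 4 comparisons, with dashed lines at 2-fold. After IFN-γ, addition of AX-0085 moved CD274 by -3.73 and TNFRSF14 by 1.92.

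The interaction asked whether the effect of AX-0085 differed with and without IFN-γ. It was called for CD274 alone among the ligand genes, while it was called for 18.6% of all genes, 12.1% with a positive and 6.46% with a negative term. For CD274 the term was -4.49 (standard error 0.76, adjusted p = 0.0002951), and it was -3.45 without AX-0085 replicate 2 (adjusted p = 0.02917). CD276 had a term of 0.98 (standard error 0.11, adjusted p = 8.672e-06), just under 2-fold, since AX-0085 lowered it without IFN-γ and raised it with IFN-γ. The terms of NECTIN2 (0.50, standard error 0.10, adjusted p = 0.001337) and CD47 (-0.47, standard error 0.11, adjusted p = 0.003746) were smaller. An interaction was not detectable for TNFRSF14 (2.23, 95% interval -0.50 to 4.96, adjusted p = 0.1613) or LGALS9 (-0.58, 95% interval -1.53 to 0.36, adjusted p = 0.2884).

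CD274 was then set against each other ligand within the same library, as a log2 ratio of counts that no scaling can change. Relative to CD276 the ratio went from -9.26 and -8.46 in untreated cells to -2.69 and -2.37 under IFN-γ and -6.91 and -6.93 under both agents. Relative to TNFRSF14 it was 1.22 and 0.65 in untreated cells, 3.18 and 2.31 under IFN-γ, and -2.88 and -3.11 under both agents. CD274 thus had more counts than TNFRSF14 in every library except the 2 with both agents. Relative to LGALS9 it was -2.05 and -0.45, then 2.75 and 2.98, then -1.94 and -1.84, so that CD274 had more counts than LGALS9 with IFN-γ alone.

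IFN-γ raised the mean ratio by 6.33 against CD276, 5.41 against NECTIN2, 4.96 against CD47, 4.11 against LGALS9 and 1.81 against TNFRSF14. Addition of AX-0085 changed it by -4.39, -3.46, -3.10, -4.75 and -5.74 in the same order. In all 10 of these comparisons the groups did not overlap. With 2 libraries against 2, the exact two-sided permutation test gave p = 0.3333 for each, which is the smallest value it can give, so that the difference between CD274 and each other ligand was not tested at a usual threshold.

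**Figure D4:**
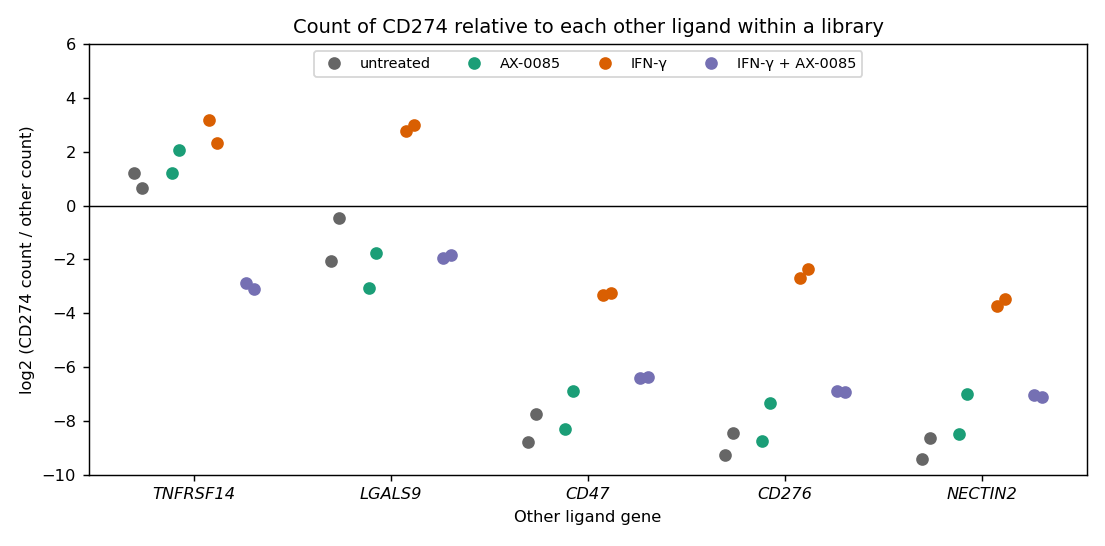
Log2 ratio of the CD274 count to the count of each other tested ligand gene (y axis, 0.5 added to each count) in each of the 8 libraries, colored by group. With both agents the ratio to TNFRSF14 is -2.88 and -3.11, below that of the other 6 libraries.

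Compared per length, as CPM per kilobase of exon, 3 ligand genes were high in every group. In untreated cells NECTIN2 had 22.2 ± 1.86 (SD, n = 2), CD276 13.7 ± 1.01 (SD, n = 2) and CD47 5.98 ± 0.248 (SD, n = 2), and their libraries did not overlap. LGALS9 followed with 0.0655 ± 0.0221 (SD, n = 2) and CD274 with 0.0369 ± 0.0180 (SD, n = 2), whose libraries came close without overlapping, and TNFRSF14 (0.0125) and VTCN1 (0.0135) could not be told apart. With IFN-γ the order was NECTIN2 at 19.4, CD47 at 7.17, CD276 at 6.31, CD274 at 1.46, TNFRSF14 at 0.150 and LGALS9 at 0.140, the last 2 overlapping. With AX-0085 alone it was NECTIN2 at 13.5, CD276 at 11.4, CD47 at 5.50, LGALS9 at 0.216, CD274 at 0.0604 and TNFRSF14 at 0.00926. With both agents it was NECTIN2 at 16.7, CD276 at 10.3, CD47 at 4.78, TNFRSF14 at 0.598, LGALS9 at 0.299 and CD274 at 0.109.

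The place of CD274 in all 4 orders depends on the length used. Divided by the exon bases outside other genes, an alternative chosen after seeing the data, its level with IFN-γ was 11.9 CPM per kilobase, against 31.2 for NECTIN2, 7.17 for CD47 and 6.31 for CD276 on the same scale. With both agents it was then 0.894, above TNFRSF14 at 0.695 and LGALS9 at 0.5095. It also lay above LGALS9 in untreated cells (0.302 against 0.111) and with AX-0085 alone (0.494 against 0.368). Divided by the longest transcript, CD276 (10.5) lay above CD47 (8.68) with IFN-γ.

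By correlation over the 8 libraries among 12352 expressed genes (average log2 CPM not below 0), those most like CD274 in log2 CPM were C3orf38 (Pearson's r = 0.995), CCDC47 (0.991) and FBXO11 (0.989). Those most like TNFRSF14 were ANKRD27 (0.992), PMEPA1 (0.985) and SH3RF3 (0.983). IDH2, INPP5A and GAMT were most like CD276, each with r = 0.995, and COG1 (0.989), MTERF4 (0.987) and ABCC3 (0.985) most like LGALS9. The points share libraries and groups, and the values describe likeness of pattern only, not of size. C3orf38 averaged 4.62 log2 CPM in untreated cells and 5.2 with IFN-γ. ANKRD27 averaged 6.37 in untreated cells and 6.72 with both agents. The changes of CD274 and TNFRSF14 were far larger.

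A wider list of 42 checkpoint and costimulatory ligands was examined beside the 8. Of these 7 had 0 counts in all libraries, 6 fell below the filter and 29 were tested. The 7 include PDCD1LG2, which encodes PD-L2, and IDO1, VSIR, TNFSF18, CD48, CEACAM1 and ENTPD1, and in all 7 between 95.01% and 100% of the exon bases lie inside other genes. IFN-γ raised 8 of the 29 (27.6%) and lowered 9 (31.0%), with a median of -0.32, where 10.3% of all tested genes were called higher and 17.2% lower. The 5 largest rises were those of HLA-G, HLA-E, ULBP1, BTN3A3 and NECTIN4. HLA-E, the ligand of the inhibitory receptor NKG2A, rose by 3.38 (standard error 0.07, adjusted p = 5.069e-13), and ULBP1, a ligand of the activating receptor NKG2D, by 2.598 (standard error 0.10, adjusted p = 9.163e-11). HLA-G was counted 85 and 88 times under IFN-γ and 7 and 1 times in untreated cells, a ratio of 27.0 with a 95% counting interval from 13.4 to 63.6. Reads of related HLA genes can be hard to tell from its own. HLA-G reached the filter through the IFN-γ-treated groups, in which it was high, so that this rise was in part set by the filter. BTN3A3, a butyrophilin, rose by 2.53 and NECTIN4 by 1.95. All exon bases of BTN3A3 lie inside the spans of other genes, yet it was counted in every library.

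The 5 largest falls were those of CD24 (-2.17), a ligand of Siglec-10, NECTIN1 (-1.89), ULBP3 (-1.68), IGSF11 (-1.63), a ligand of VISTA, and FGL1 (-1.46), a ligand of LAG-3. When AX-0085 was added after IFN-γ, it raised 5 of the 29 (17.2%) and lowered 2 (6.9%), with a median of -0.16. These shares are near those of all tested genes, 16.5% higher and 8.28% lower, so that the members are named as values only. Those raised were FGL1 (2.71), CD24 (1.96), NECTIN1 (1.94), TNFSF4 (1.76) and MICA (1.55), and those lowered were HLA-E (-1.31) and ULBP2 (-1.15). Low counts limit TNFSF4 and MICA. Summed over the libraries of a group, TNFSF4 had 5 counts with IFN-γ and 21 with both agents, and MICA had 8 and 29. TNFSF4 reached the filter through libraries with AX-0085, and MICA through libraries other than those with IFN-γ alone. The rises of both were therefore in part set by the filter. HLA-G changed by -0.70 (adjusted p = 0.0204) and ULBP1 by -0.09 (adjusted p = 0.3247), neither of them called.

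**Figure D5:**
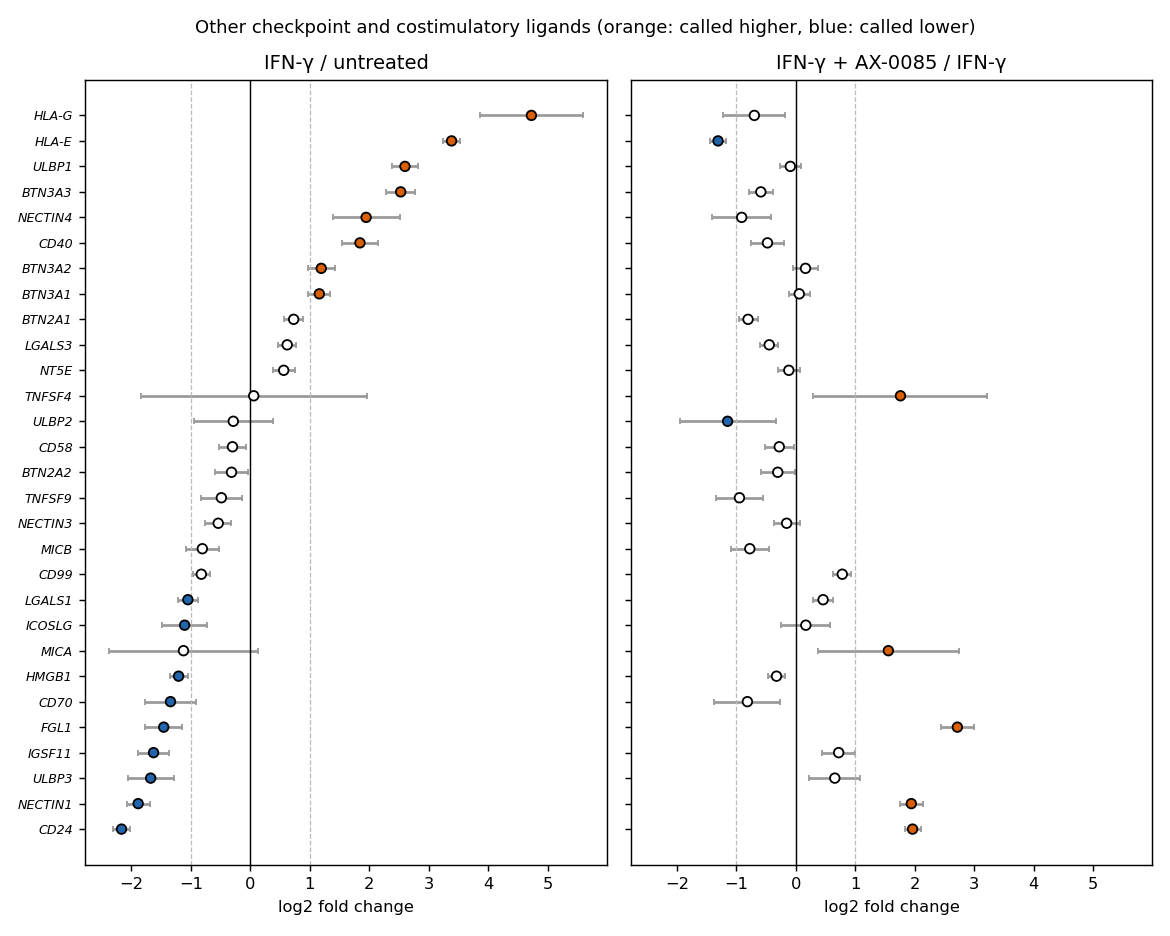
Log2 fold changes (x axis, points) with 95% intervals (bars) of 29 other checkpoint and costimulatory ligand genes for IFN-γ against untreated cells (left) and for AX-0085 added to IFN-γ (right), ordered by the left panel, with dashed lines at 2-fold. On the left 8 genes are called higher and 9 lower, and on the right 5 higher and 2 lower.

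Genes known to regulate PD-L1 or CD47 were given a list of 36, of which 34 were tested. IRF1 and SOCS1 had 0 counts everywhere, and both lie wholly inside other genes. IFN-γ raised 7 (20.6%) and lowered 3 (8.82%), with a median of 0.31, against 10.3% and 17.2% of all tested genes. SOCS3, a feedback inhibitor of JAK kinases, rose by 3.01 (standard error 0.09, adjusted p = 8.144e-12). JUN rose by 2.52 and MYC by 2.03. IRF9 was counted 11 and 23 times under IFN-γ and 3 and 1 times in untreated cells, a ratio of 10.6 with a 95% counting interval from 3.79 to 41.2. B3GNT3 (-2.43), a glycosyltransferase that modifies PD-L1, FOS (-1.61) and QPCTL (-1.41), the enzyme that completes the SIRPα-binding site of CD47, were the 3 that fell.

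Addition of AX-0085 to IFN-γ lowered 9 of the 34 regulators (26.5%) and raised 3 (8.82%), with a median of -0.30, against 8.28% and 16.5% of all tested genes. Among the largest falls were those of SOCS3 (-3.28), JUN (-3.08), IRF9 (-2.17) and MYC (-1.58). IRF9 reached the filter only through the IFN-γ libraries, in which it was high. Its rise with IFN-γ and its fall upon addition of AX-0085 were therefore in part set by the filter. The 3 that rose were FOS (2.58), B3GNT3 (1.78) and QPCTL (1.14). CMTM6, which stabilizes PD-L1 at the cell surface, changed by -0.35 with IFN-γ (adjusted p = 0.04369) and by -0.05 upon addition of AX-0085 (adjusted p = 0.7669).

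Of 18 genes for receptors and partners of the ligands, 6 were tested, 9 fell below the filter and 3 had 0 counts. PDCD1, which encodes PD-1, had 2 counts in 1 library with both agents and 0 in the other 7. SIRPA, the receptor of CD47, had the highest level of the 6 tested, at between 59.3 and 101 CPM. With IFN-γ it was lower by less than 2-fold (-0.75, adjusted p = 1.245e-07). THBS1, a secreted partner of CD47, was the 1 gene of this list called with IFN-γ (-1.28, adjusted p = 2.953e-07). It makes up 16.7% of the 6 tested, near the 17.2% of all tested genes called lower, so that it is named as a value only. When AX-0085 was added, SIRPA changed by 0.42 and THBS1 by 0.40, neither of them called. Among the 6 epithelial markers IFN-γ lowered 5 by more than 2-fold, with a median of -1.56. KRT7 went the other way, from a mean of 2533 CPM to 4226 CPM, and was not called. Of the 5 tested markers of other cell types IFN-γ lowered 3, CD14, CD4 and COL1A1, against 17.2% of all tested genes called lower. Summed over a group, CD4 had 16 counts in untreated cells and 2 with IFN-γ, and CD14 had 305 and 5. Both reached the filter through libraries other than those with IFN-γ alone, so that their falls were in part set by the filter.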

How the data were processed

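The data are 8 RNA-seq libraries of A549 cells in 4 groups of 2. The authors' processing used Trim Galore 0.6.7 for trimming, STAR 2.7.9a for alignment and featureCounts for counting, and the deposited values are raw counts per gene without normalization. The annotation release, strand setting and treatment of ambiguous reads are not given in the sources used here. Gene models and overlaps were taken from GENCODE 44 on GRCh38, and promoter windows from RefSeq on GRCh38.p14.

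Counts were filtered with filterByExpr, scaled with TMM and tested with edgeR 4.0.16 (quasi-likelihood) under R 4.3.3, where a single model held the 4 groups. Standard errors are the log2 fold change divided by the square root of F. Counting intervals for ratios are exact conditional binomial. DESeq2 1.42.0 was run as an alternative, and the procedure was tested on simulated data. Genes correlated with a ligand were compared on log2 CPM with a prior count of 2.

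The ligand genes are always named, other lists give at most the 5 largest called changes in each direction, and the 3 genes most alike in pattern are named for each called ligand gene. CMTM6, PDCD1, SIRPA and CD14, and the values of HLA-G, ULBP1 and THBS1 that were not called, fall outside this rule and were chosen after their values were seen. 1 member of the regulator list is counted there but not reported here by name. The members and lists were chosen with earlier results of these data known. Replicate numbers were not used to pair the libraries in the main model. The correlation of same-numbered deviations lay between -0.109 and 0.0873 over the group pairs, which cannot show that the libraries were unpaired. Alternatives covered scaling, filters, DESeq2, the call rule, a replicate block and each library left out.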

Additional observations from a re-analysis of the deposited data

Results flagged for a closer look

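For 4 ligand genes the effect of AX-0085 differed between cells with and without IFN-γ by the interaction term itself (edgeR, Benjamini-Hochberg-adjusted p under 0.05). By the same rule 26.7% of all tested genes had a positive and 23.6% a negative term, so that the 4 genes are given as values only. The term was -4.49 for CD274, where AX-0085 had a log2 fold change of 0.76 without and -3.73 with IFN-γ. It was 0.98 for CD276, with -0.27 without and 0.71 with IFN-γ, so that the directions were opposite. It was 0.50 for NECTIN2, with -0.72 without and -0.22 with IFN-γ. It was -0.47 for CD47, with -0.12 without and -0.59 with IFN-γ. The terms of CD276, NECTIN2 and CD47 lie under the 2-fold threshold.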

How the results depend on the processing

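With IFN-γ, CD274 (4.89 to 5.86) and TNFRSF14 (2.95 to 4.69) stayed called higher in the 14 alternatives that gave a value, and CD276 (-1.23 to -1.03) lower in 15. Low counts limit CD274, TNFRSF14 and LGALS9, and a 10-count minimum in every library removed all 3. That filter left 0 ligand genes called higher in each of the 5 comparisons that had one, 0 called lower when AX-0085 followed IFN-γ and 0 with a negative interaction, and 1 (CD276) with a positive interaction. With the adjusted p alone, 2 ligand genes were lower with IFN-γ and 3 lower when AX-0085 was added to it. CD47 was then also among those higher with IFN-γ, and CD276 among those higher when AX-0085 was added. By the same rule 2 were lower with AX-0085 alone, 3 lower with both agents against untreated cells and 2 higher with both against AX-0085. In the interaction 2 had positive and 2 negative terms. DESeq2 called 1 ligand gene higher when AX-0085 followed IFN-γ. CD276 passed 2-fold in the interaction with library size alone (1 positive call), and leaving out a library gave 0 to 1. The fall of CD274 relative to CD47 was -3.04 with a prior count of 1. The direction reversed without significance for AX-0085 alone, for CD274 without AX-0085 replicate 2 (-0.28, range without each library -0.28 to 1.33) and for TNFRSF14 without untreated replicate 2 (0.73) or AX-0085 replicate 1 (0.04, range -0.998 to 0.73). The cause of these shifts was not tested.

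Over all genes, the adjusted p alone called 32.1% higher and 36% lower with IFN-γ, 33.7% and 32.8% when AX-0085 was added to it, 26.7% and 26.6% with AX-0085 alone, 28.1% and 28.8% with both agents against untreated cells, 17.3% and 17.4% with both against AX-0085 and 26.7% and 23.6% in the interaction, and testing every gene with at least 1 count called 6.29% higher and 10.7% lower with IFN-γ. Scaling by library size alone moved the median of all genes from -0.06 to -0.18 with IFN-γ and from 0.03 to 0.16 upon addition of AX-0085, and no ligand gene changed direction. With the replicate block, CD274 changed by 5.29 with IFN-γ and -3.70 upon addition of AX-0085, and the calls of the 6 ligand genes were the same in number in every comparison. In fits without a library, its group is assumed to vary like the others.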

Other observations

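CD14, a lipopolysaccharide co-receptor that served here as a marker of monocytes, was the marker of other cell types that moved most. It was counted 158 and 147 times in untreated cells, 144 and 99 times under AX-0085 alone, 1 and 4 times under IFN-γ, and 103 and 80 times under both agents. The 2 IFN-γ libraries lay far below the other 6. Its log2 fold change was -5.56 with IFN-γ (adjusted p = 5.019e-08) and 4.85 when AX-0085 followed (adjusted p = 5.874e-07, edgeR's quasi-likelihood test). CD14 reached the filter through groups other than IFN-γ alone, so that both changes, with their p-values, were in part set by the filter. PTPRC had 1 count in 2 libraries and 0 in the other 6.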
